A study of Mus musculus with 2 samples.

Results

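The genes described here are 10 chemokines of the mouse heart, Ccl2, Ccl7, Ccl11, Ccl6, Ccl8, Ccl24, Cxcl1, Cxcl12, Cxcl14 and Cxcl16, out of 32245 genes in the count tables. They were chosen by symbol from values measured in these libraries, with earlier fibroblast-like ratios of several of them known, so their fibroblast levels are a description. The question is which classes of nuclei hold their RNA and whether a higher level is limited to fibroblasts. Nuclear RNA of cardiac tissue was sequenced in 2 libraries, CF-KI and control, from male C57Bl6/J mice aged 3.5 months. Both carried Tcf21-MerCreMer, a tamoxifen-inducible Cre recombinase expressed from the fibroblast gene Tcf21, and both received tamoxifen. The CF-KI library was homozygous for the Nlrp3 allele A350V, which is constitutively active and, per the series text, silent in cells without Cre. The control library was wild type for Nlrp3. The number of animals in a library is not given in the sources used here.

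Chemokines are small secreted proteins that bind G protein-coupled receptors on leukocytes and steer their migration. Ccl2 and Ccl7 are ligands of Ccr2 and call monocytes out of the blood, Ccl11 and Ccl24 are eotaxins that act through Ccr3, Cxcl1 attracts neutrophils through Cxcr2, and Cxcl12 holds Cxcr4-bearing cells in place. Cxcl16 is membrane-anchored and binds Cxcr6, Ccl6 and Ccl8 are largely products of tissue macrophages, and Cxcl14 is a constitutive chemokine of stromal and epithelial cells. Nlrp3 is the sensor of an inflammasome that matures interleukin-1β, a cytokine that switches on chemokine genes through NF-kB.

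Ccl2, Ccl7, Ccl11 and Ccl8 lie near each other on chromosome 11 (GRCm38, plus strand): Ccl2 at chr11:82035571-82037453, Ccl7 at chr11:82045712-82047525, Ccl11 at chr11:82057823-82062955 and Ccl8 at chr11:82115185-82116799. Promoter sequences were at hand for 5 of the 10 genes. Those of Cxcl1, Cxcl12 and Cxcl14 are shown because their ratios between the libraries differ in size or sign. Each gives the 250 bases before the RefSeq start on GRCm38.p6, 5′ to 3′ on the gene's strand, and capitals mark matches to the NF-kB motif GGGNNTTTCC on either strand. The Cxcl1 promoter lies at chr5:90890995-90891244 (plus strand), that of Cxcl12 at chr6:117168285-117168534 (plus strand) and that of Cxcl14 at chr13:56296552-56296801 (minus strand).
Cxcl1: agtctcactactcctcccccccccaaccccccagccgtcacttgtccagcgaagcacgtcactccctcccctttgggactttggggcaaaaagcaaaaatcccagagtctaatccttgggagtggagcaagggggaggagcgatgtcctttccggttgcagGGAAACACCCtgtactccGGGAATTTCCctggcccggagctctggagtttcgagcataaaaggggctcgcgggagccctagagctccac
Cxcl12: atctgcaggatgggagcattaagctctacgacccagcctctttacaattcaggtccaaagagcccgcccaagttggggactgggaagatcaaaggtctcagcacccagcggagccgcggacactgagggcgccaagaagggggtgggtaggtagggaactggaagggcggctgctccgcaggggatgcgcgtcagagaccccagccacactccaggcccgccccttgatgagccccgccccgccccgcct
Cxcl14: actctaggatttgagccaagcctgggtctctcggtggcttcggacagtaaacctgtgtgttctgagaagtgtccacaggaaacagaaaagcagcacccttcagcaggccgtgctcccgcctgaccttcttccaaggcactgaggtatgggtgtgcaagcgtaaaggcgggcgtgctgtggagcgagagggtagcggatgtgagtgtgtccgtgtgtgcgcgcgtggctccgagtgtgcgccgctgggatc
Cxcl1 has 2 matches, which begin 89 and 71 bases before its start. The motif occurs in 1.41% of 32851 promoters of this length. The windows of Cxcl12 and Cxcl14, like those of Ccl6 and Ccl8, hold no match, which says only that these letters are not in these windows.

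The CF-KI library held 15077 barcodes with 21603653 UMIs and the control 11257 with 18040776, at median depths of 1115 and 1158 UMIs. The libraries stood apart in mitochondrial RNA, with a median share per barcode of 14.2% (CF-KI) and 3.46% (control), and 46 barcode sequences occurred in both. After filtering, 13175 and 10193 nuclei remained. Nlrp3 had 6 UMIs in CF-KI fibroblast-like nuclei and 0 in the control, which makes it at least 2.42-fold higher against the level of 3 UMIs. It also had 9 UMIs against 0 in cardiomyocyte-like nuclei, and 9 against 16 in macrophage-like nuclei (log2 ratio −1.07, −2.43 to 0.20). Tcf21, the gene whose promoter drives Cre, stood at 132.3 and 130.5 CPM in fibroblast-like nuclei. CPM is a gene's UMIs per 1000000 non-mitochondrial UMIs of its class in that library, and every interval is a 95% interval that covers counting error only. With 1 library per group there is no replicate check and no test.

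Nuclei were grouped into 9 classes by marker genes, each with at least 50 nuclei in either library. There were 3831 CF-KI and 3496 control fibroblast-like nuclei, 583 and 827 macrophage-like, 1480 and 778 endothelial-like, and 4302 and 2467 cardiomyocyte-like nuclei. All 10 fibroblast markers were present in fibroblast-like nuclei, at a summed 25097 CPM in the CF-KI and 44033 CPM in the control library. RNA of other cells was more abundant in CF-KI. The 10 cardiomyocyte markers, which fibroblasts should lack, summed to 16528 CPM in CF-KI fibroblast-like nuclei and 4941 in control ones, and 8 of the 10 were at least 2-fold higher. As a median over these markers, CF-KI fibroblast-like nuclei held 54.2% of the level of the whole library, and control ones 24.6%. That share of a chemokine's whole-library level is called its free-RNA level below. For cardiomyocyte-like nuclei 64 markers of other classes gave shares of 28.0% and 11.3%. Airway epithelial-like nuclei were in the control library only, 109 against 0, and their markers summed to 617.5 CPM in control fibroblast-like nuclei and 5.09 in CF-KI ones. The part of this in the chemokine levels was not tested.

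Ccl2, the main monocyte attractant, was the highest of the 10 by ratio in fibroblast-like nuclei. Its UMIs numbered 335 in CF-KI against 152, or 100.2 CPM (89.8 to 111.6) against 37.6 (31.9 to 44.1). The intervals of the 2 libraries were apart, and the log2 ratio was 1.41 (1.13 to 1.70). Both levels stood above the free-RNA levels of 19.7 and 5.42 CPM. Subtraction of those gave a log2 ratio of 1.32, and 2.04 when what was left was also rescaled to the total without free RNA, which adds 0.72 to every ratio of this class. More nuclei carried the transcript, while the amount in a carrying nucleus was close. At least 1 UMI was found in 3.18% of CF-KI and 1.77% of control fibroblast-like nuclei (median depth 752 and 956 UMIs). Such nuclei held a mean of 2.75 and 2.45 UMIs, not matched for depth. After every nucleus was thinned to 500 UMIs, which left out 297 and 69 shallower ones, the shares were 2.49% (2.0 to 3.06) and 1.25% (0.91 to 1.69). Cardiomyocyte-like nuclei, of median depth 1064 and 2154 UMIs, had 0.95% and 0.41% before thinning and 0.50% and 0.084% after it.

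Ccl7, the neighbour of Ccl2 and a ligand of the same receptor, was also higher in CF-KI fibroblast-like nuclei. It had 135 UMIs against 69, or 40.4 CPM (33.9 to 47.8) against 17.1 (13.3 to 21.6), with a log2 ratio of 1.24 (0.81 to 1.68). The free-RNA levels were 7.09 and 2.01 CPM, and subtraction gave 1.14, or 1.86 with the rescaling. In cardiomyocyte-like nuclei Ccl7 had 17 UMIs against 6 (1.65, 0.24 to 3.28). Its CF-KI level there was 3.14 CPM, against a free-RNA level of 3.67. Ccl2 and Ccl7 were caught in the same nuclei more often than the product of their shares gives. Of the 122 CF-KI fibroblast-like nuclei with Ccl2, 22 also held Ccl7, where the product of the 2 shares gives 2.55, and in the control 7 of 62 did, against 0.82. Ccl7 was thus found in 18.0% of Ccl2-bearing CF-KI nuclei and in 1.56% of the others. Cxcl1 was found with Ccl2 in 11 CF-KI nuclei (product of shares 2.10), whereas Ccl11 (3 nuclei, product 3.79) and Cxcl14 (3 nuclei, 5.51) were not found with it more often than the product gives. Depth per nucleus was not matched in these counts, so its part was not tested.

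**Figure D1:**
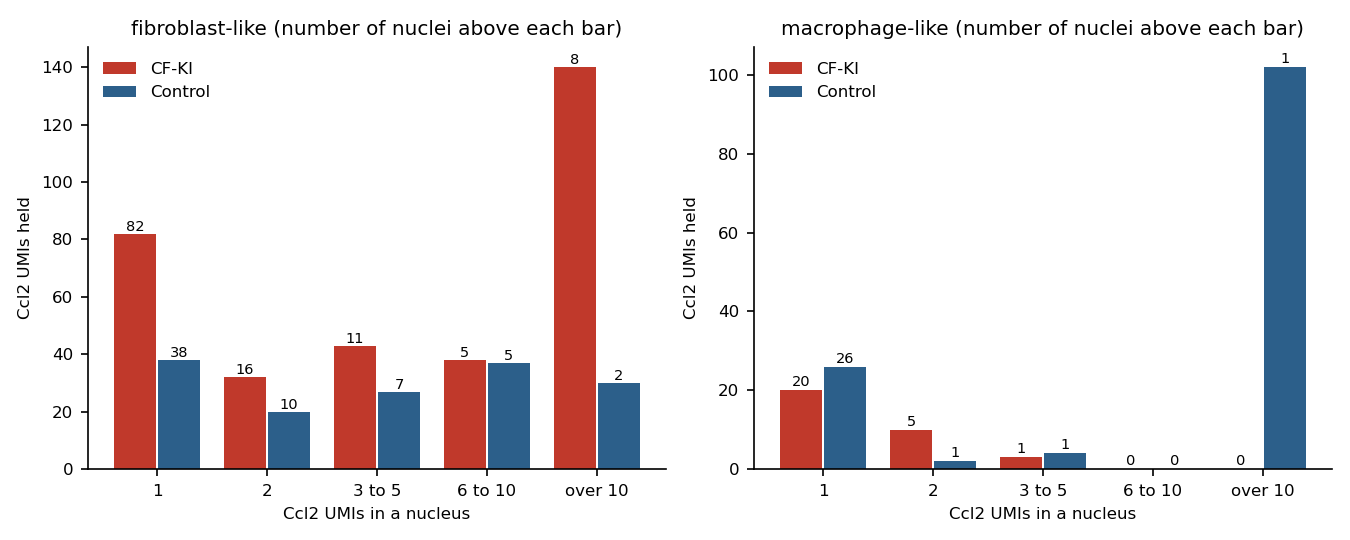
Ccl2 UMIs held (y axis) by nuclei with 1, 2, 3 to 5, 6 to 10 or over 10 Ccl2 UMIs (x axis) in fibroblast-like (left) and macrophage-like (right) nuclei, red for CF-KI and blue for control, with the number of nuclei above each bar. In fibroblast-like nuclei 8 CF-KI and 2 control nuclei held over 10 UMIs, and in control macrophage-like nuclei 1 nucleus held 102.

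A small number of nuclei supplied much of the Ccl2 signal. In CF-KI, 8 of 3831 fibroblast-like nuclei had over 10 UMIs and together held 140 of the 335, and in the control 2 nuclei held 30 of 152. The difference did not rest on the single top nucleus, since without it in each library the log2 ratio was 1.48 (1.18 to 1.78). Neutrophil markers were near 0 in fibroblast-like nuclei, at 8.08 and 2.23 CPM (CF-KI and control) for the whole list, with 4 and 3 of 8 markers at 0. Macrophage markers summed to 177.7 and 120.8 CPM there, and 0 of the 8 measured there were 2-fold higher, against 3002 and 7840 in macrophage-like nuclei. The part of these cells in the Ccl2 level was not tested.

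The fibroblast-like class was made of 3 clusters, and different ones held most of it in the 2 libraries. Cluster 1 had 2993 CF-KI and 185 control nuclei, cluster 2 had 236 and 2421, and cluster 6, led by Cilp, Myoc and Pi16, had 602 and 890. Ccl2 was higher in CF-KI in each. It stood at 91.1 against 47.7 CPM in cluster 1 (log2 ratio 0.93, −0.020 to 2.08), 184.6 against 35.8 in cluster 2 (2.37, 1.78 to 2.94) and 104.3 against 39.0 in cluster 6 (1.42, 0.93 to 1.91). The interval for cluster 1, with 9 control UMIs, holds 0. Ccl7 differed in cluster 2, at 108.9 against 12.5 CPM (3.12, 2.26 to 3.97), but not beyond its interval in cluster 1 (0.056, −1.05 to 1.41) or cluster 6 (0.41, −0.43 to 1.21). In cluster 2 a single CF-KI nucleus held 17 of the 23 Ccl7 UMIs, and a single one held 28 of the 39 Ccl2 UMIs. Both had 2214 non-mitochondrial UMIs, as had the nucleus with 6 of the 11 Cxcl1 UMIs of this cluster, so they may be 1 nucleus. The cluster 2 ratios thus lean on single nuclei, and they were not measured without them. Cxcl1 was highest in ratio in cluster 6, at 36.4 against 8.67 CPM (2.07, 1.11 to 3.10).

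**Figure D2:**
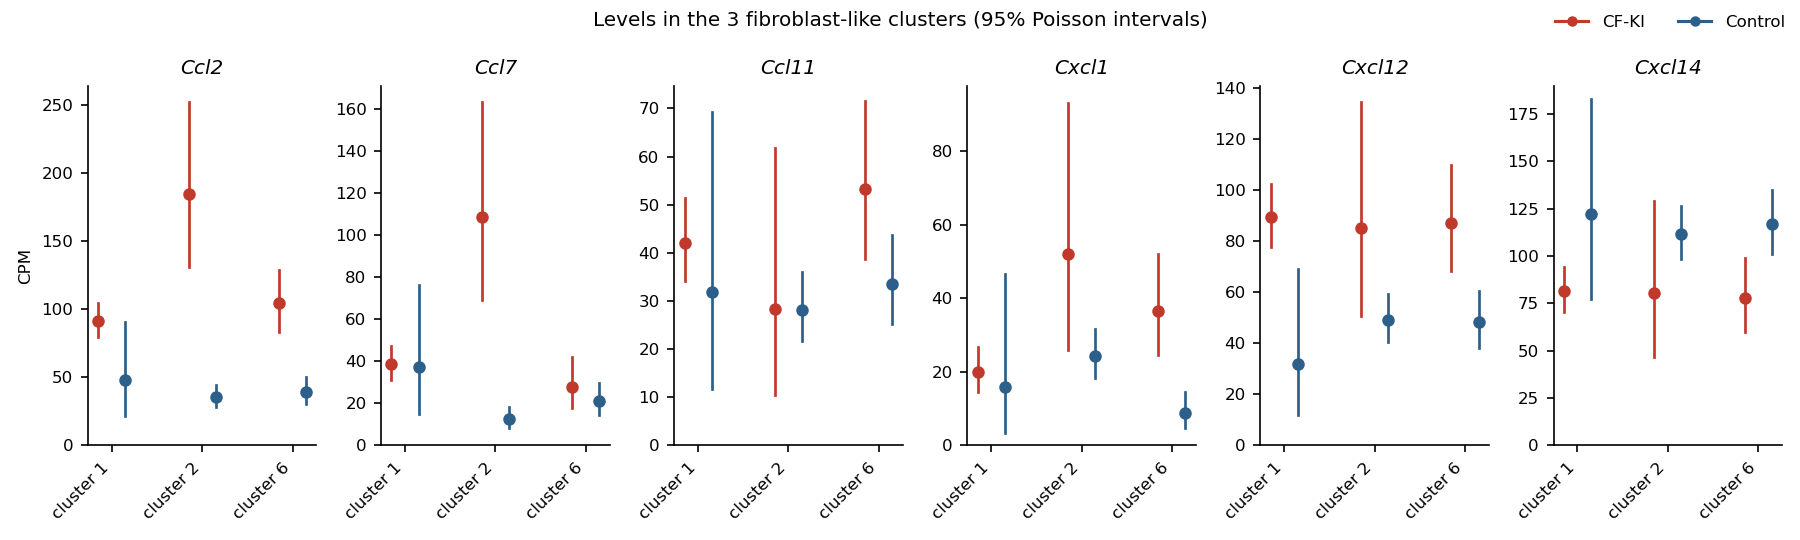
Level in CPM (y axis) of 6 chemokines in the 3 fibroblast-like clusters (x axis), red for CF-KI and blue for control, with points for the level and lines for 95% Poisson intervals. Ccl2 is higher in CF-KI in all 3 clusters, the Ccl7 difference is in cluster 2, and Cxcl14 is lower in CF-KI in all 3. In cluster 2 a single CF-KI nucleus held 17 of 23 Ccl7 UMIs, and a single one 28 of 39 Ccl2 UMIs. Both had 2214 non-mitochondrial UMIs and may be 1 nucleus.

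Mitochondrial share differed with the library, so Ccl2 was also set out by bins of it. Among fibroblast-like nuclei with over 5 to 20% mitochondrial UMIs, 2737 of CF-KI and 2014 of the control, the log2 ratio was 1.84 (1.47 to 2.22) with 278 and 78 UMIs. At most 5% left only 56 CF-KI nuclei with 4 Ccl2 UMIs against 1424 with 73, a ratio of 0.34 (−1.58 to 1.76). That bin is too thin to show a difference. When the limit of 5% was applied before the clustering, the ratio was 0.055 (−1.86 to 1.47).

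The higher Ccl2 level was not limited to fibroblast-like nuclei by these counts. Of 9 classes, 3 had an interval above 0: fibroblast-like, pericyte-like (16 against 3 UMIs, log2 ratio 2.80, 0.99 to 5.22) and cardiomyocyte-like (63 against 10 UMIs, 2.80, 1.83 to 3.93). Endothelial-like (0.90, −0.35 to 2.35), endocardial-like (1.05, −0.035 to 2.23) and lymphatic endothelial-like nuclei (1.75, −0.073 to 4.18) had ratios above 0 with intervals that hold it. Without the top nucleus of each library, chosen after seeing the data, endothelial-like (1.58, 0.033 to 3.57) and endocardial-like nuclei (2.80, 1.06 to 5.18) had intervals above 0. Pericyte-like nuclei (2.97, −0.076 to 8.49) then did not. In CF-KI, endothelial-like (15.1 CPM) and endocardial-like levels (22.0 CPM) stood below free-RNA levels of 17.9 and 24.9. Pericyte-like (56.0) and lymphatic endothelial-like ones (96.1) stood above 21.9 and 18.9. In cardiomyocyte-like nuclei 1 CF-KI nucleus held 21 of the 63 UMIs. Without the top nuclei the ratio there was 2.37 (1.31 to 3.59), at 7.77 CPM in CF-KI. The part of free RNA in these ratios was not tested. As a difference of log2 ratios, fibroblast-like minus other, Ccl2 was higher in fibroblast-like nuclei than in 1 of 8 classes (macrophage-like, 3.67, 3.05 to 4.33). It was lower than in 1 (cardiomyocyte-like, −1.39, −2.55 to −0.38), and 6 intervals hold 0.

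The levels, unlike the ratios, placed fibroblast-like nuclei first in CF-KI. In CF-KI the order of Ccl2 was fibroblast-like (100.2 CPM), lymphatic endothelial-like (96.1), pericyte-like (56.0), macrophage-like (34.6), endocardial-like (22.0), adipocyte-like (18.4), endothelial-like (15.1), cardiomyocyte-like (11.6) and mesothelial-like (7.24). No neighbours in this order differed beyond their interval, though from macrophage-like nuclei down each interval lay below the fibroblast-like one. In cardiomyocyte-like nuclei the 11.6 CPM of CF-KI stood close to a free-RNA level of 10.2, and the 1.67 CPM of the control below one of 2.50. Fibroblast-like nuclei held 63.3% (59.1 to 67.4) of the Ccl2 UMIs of CF-KI and 46.6% (41.1 to 52.2) of those of the control, with 23.0% and 27.4% of all UMIs.

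**Figure D3:**
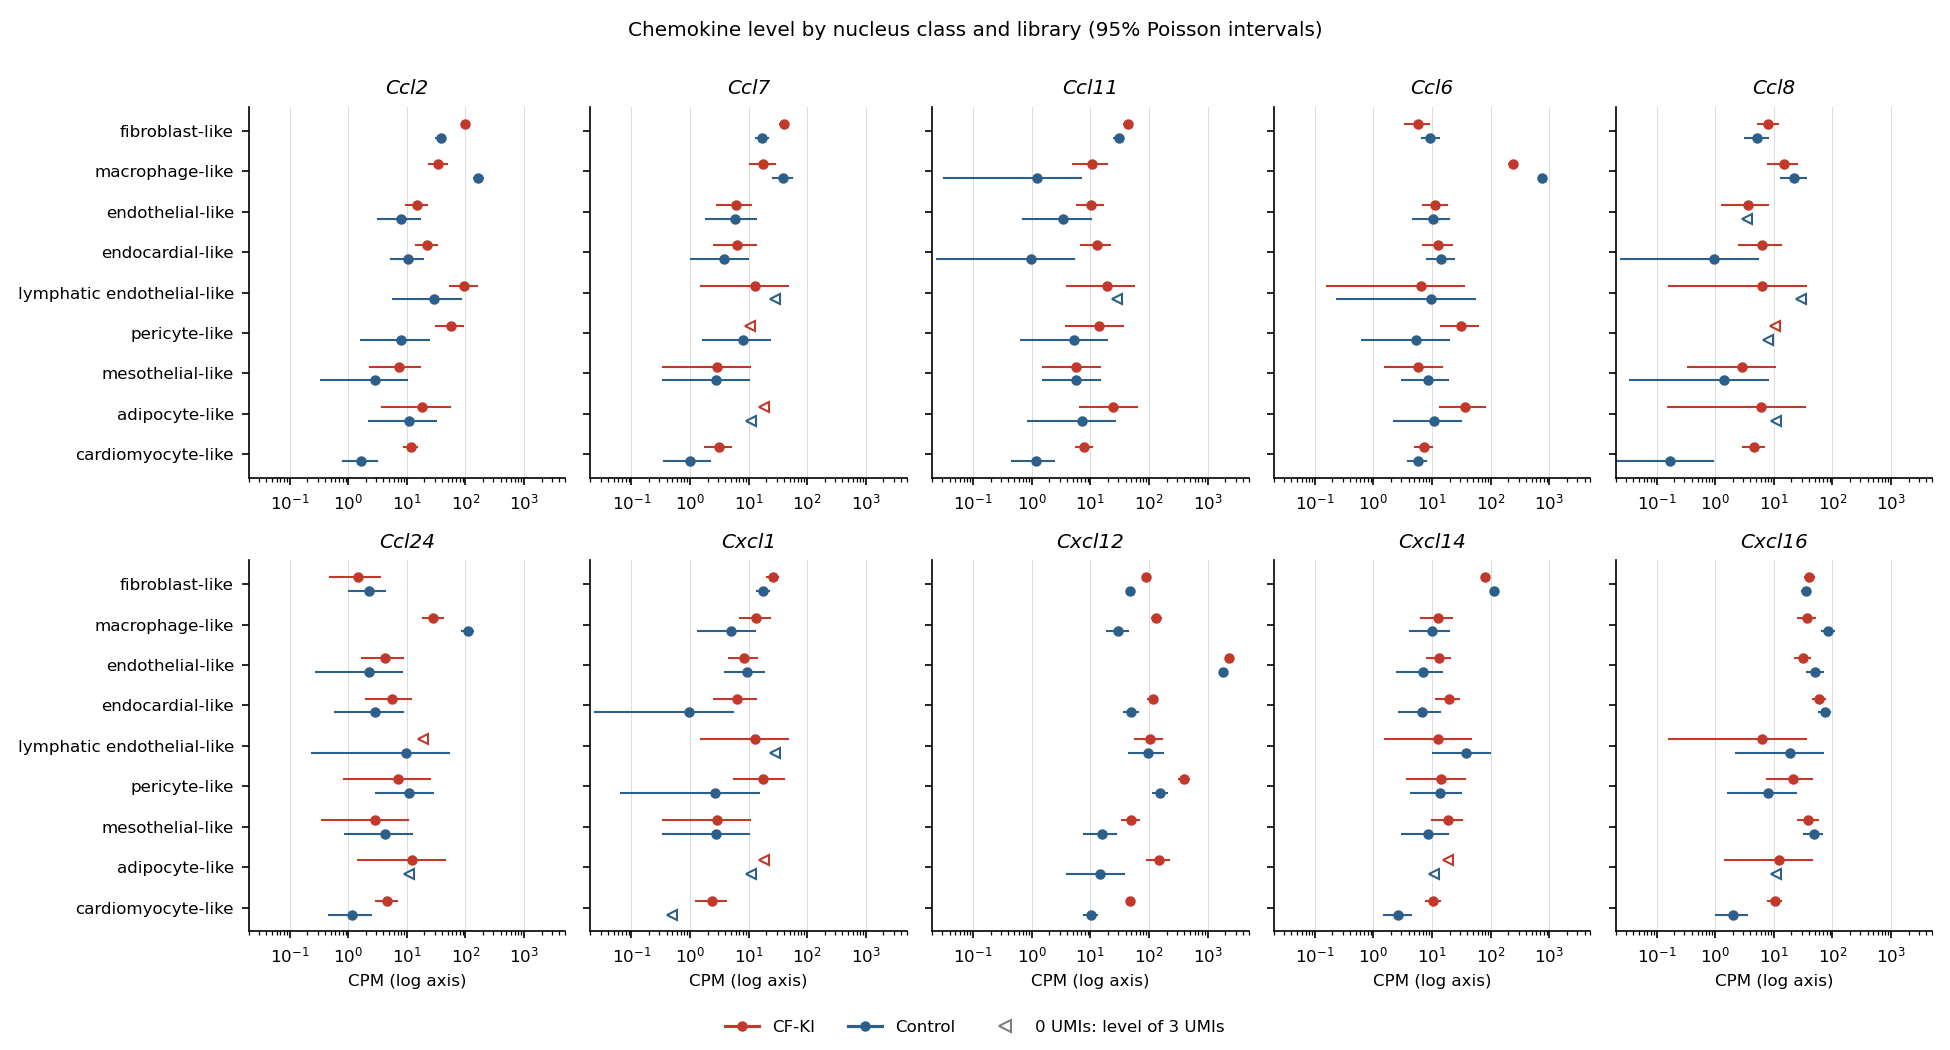
Level in CPM (x axis, log scale) of the 10 chemokines, one panel each, in 9 classes (y axis), red for CF-KI and blue for control, with 95% Poisson intervals as lines; open triangles mark 0 UMIs at the level that 3 UMIs give. Ccl2 and Ccl7 lead in fibroblast-like nuclei in CF-KI, Ccl6 and Ccl24 in macrophage-like nuclei, and Cxcl12 in endothelial-like nuclei.

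In macrophage-like nuclei 6 of the 8 measured chemokines were lower in CF-KI and 2 were higher. Of all 9795 genes measured there, 48.3% were higher. Ccl2 had 33 UMIs against 134 there, or 34.6 against 165.9 CPM (log2 ratio −2.26, −2.86 to −1.70). A single control nucleus held 102 of the 134 UMIs, 76.1%. It belonged to cluster 16, the smaller macrophage-like cluster, led by the cell cycle genes Kif15, Top2a and Aspm. Without the top nucleus of each library the levels were 31.5 and 40.1 CPM, a log2 ratio of −0.35 (−1.12 to 0.42), so the lower Ccl2 level rested on that nucleus. The control share of Ccl2 held by macrophage-like nuclei, 41.1%, includes it. Ccl7 was lower too, with 17 against 31 UMIs (−1.11, −2.05 to −0.21), but the interval held 0 without the top nucleus of each library (−0.87, −1.91 to 0.13) and in the larger cluster 7 (−0.76, −1.79 to 0.23).

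Ccl6 was mainly a transcript of macrophage-like nuclei in both libraries, and Ccl24 in the control. Ccl6 had 227 UMIs against 602, or 238.2 against 745.2 CPM (log2 ratio −1.65, −1.87 to −1.42). The ratio was −1.71 with free RNA subtracted, −0.75 with the rescaling, which adds 0.97 in this class, and −2.82 under a limit of 5% mitochondrial UMIs. Macrophage-like nuclei held 63.9% of its CF-KI and 82.5% of its control UMIs. Ccl6 was found in 20.9% of CF-KI and 30.1% of control macrophage-like nuclei, and after thinning in 10.8% and 21.3%, against 0.25% and 0.21% of cardiomyocyte-like nuclei. Ccl24, the eotaxin of alternatively activated macrophages, had 27 and 88 UMIs, or 28.3 against 108.9 CPM (−1.94, −2.62 to −1.31). Macrophage-like nuclei held 75.2% of its control UMIs and 34.6% of its CF-KI UMIs. Cardiomyocyte-like nuclei held 32.1% of its CF-KI UMIs, with 25 UMIs against 7 in the control (1.98, 0.73 to 3.44). Neither differed beyond its interval in fibroblast-like nuclei, where Ccl6 had 19 and 38 UMIs (−0.73, −1.60 to 0.10) and Ccl24 5 and 9. In macrophage-like nuclei the 9 macrophage markers summed to 3002 CPM against 7840, the cardiomyocyte markers to 20351 against 6739 and the neutrophil markers to 354.7 against 48.3. The part of these in the lower levels was not tested.

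Ccl8 and Cxcl16 were shared between classes. Ccl8 was sparse, with 84 UMIs in all CF-KI nuclei and 42 in the control, and its intervals held 0 in fibroblast-like (27 and 21 UMIs, log2 ratio 0.64, −0.24 to 1.53) and macrophage-like nuclei (14 and 18 UMIs, −0.60, −1.72 to 0.49). Its interval lay above 0 in cardiomyocyte-like nuclei only, with 25 UMIs against 1 (4.79, 2.18 to 10.2). In CF-KI Cxcl16 was highest in endocardial-like nuclei (59.5 CPM) and in the control in macrophage-like nuclei (84.2 CPM). It was lower in CF-KI in macrophage-like (35 against 68 UMIs, −1.20, −1.83 to −0.59) and endothelial-like nuclei (52 against 44 UMIs, −0.70, −1.30 to −0.083). Without the top nucleus of each library the endothelial-like interval held 0 (−0.62, −1.25 to 0.021). Cxcl16 was higher in CF-KI in cardiomyocyte-like nuclei, with 56 UMIs against 12 (2.37, 1.45 to 3.40). Its CF-KI level there was 10.4 CPM, against a free-RNA level of 7.43. In fibroblast-like nuclei its 135 and 143 UMIs gave 0.19 (−0.16 to 0.54), and the difference between that ratio and the macrophage-like one was 1.39 (0.68 to 2.11).

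**Figure D4:**
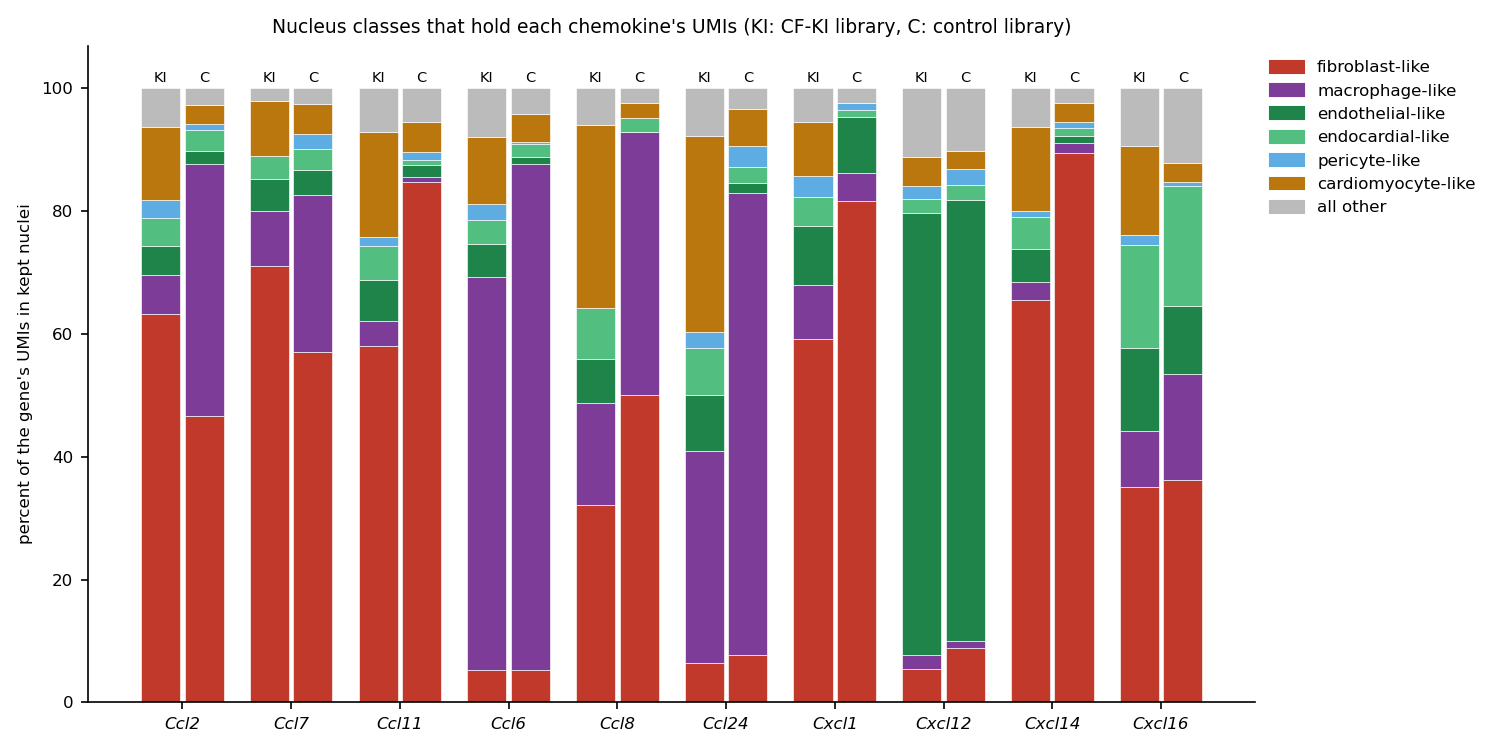
Share of each chemokine's UMIs in kept nuclei (y axis, percent) held by each class (colours), with 1 bar for the CF-KI library (KI) and 1 for the control (C) per gene. Macrophage-like nuclei hold 41.1% of control Ccl2 and 6.24% of CF-KI Ccl2, and endothelial-like nuclei hold 71.9% of CF-KI and 72.0% of control Cxcl12.

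Cxcl12 was above all an endothelial transcript. Endothelial-like nuclei held 71.9% of its CF-KI and 72.0% of its control UMIs, with 2368 CPM (2295 to 2444) against 1823 (1734 to 1915). The log2 ratio there was 0.38 (0.29 to 0.46), the smallest of the 8 classes whose interval was above 0. An unnamed cluster of 92 and 32 nuclei had similar levels, 2182 and 1882 CPM (0.21, −0.033 to 0.47). Pericyte-like nuclei came next in the order, with 402.2 against 155.7 CPM (1.37, 0.90 to 1.85).

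The fibroblast-like ratio of Cxcl12 was 0.88 (0.62 to 1.15), with 296 and 194 UMIs, or 88.6 against 48.0 CPM. It was higher than in endothelial-like nuclei by 0.51 (0.23 to 0.79). It was lower than in macrophage-like (2.17 there, 127 against 24 UMIs), adipocyte-like (3.35, 24 against 4 UMIs) and cardiomyocyte-like nuclei (2.20, 258 against 62 UMIs). In CF-KI the fibroblast-like level lay below the free-RNA level of 204.0 CPM, and the control level was near the 36.5 CPM given by its own. The same held in CF-KI macrophage-like nuclei, at 133.3 CPM against 249.3, and cardiomyocyte-like nuclei, at 47.7 against 105.5. The estimate exceeded the measured level in these classes, and the part of free RNA in their ratios was not tested. Cxcl12 was found in 7.05% of CF-KI and 4.98% of control fibroblast-like nuclei, and after thinning in 4.02% and 2.16%, against 2.50% and 0.75% of cardiomyocyte-like ones.

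Cxcl14 ran opposite to Ccl2 in fibroblast-like nuclei, its main source in both libraries. Its UMIs numbered 269 against 462, or 80.5 CPM (71.2 to 90.7) against 114.4 (104.2 to 125.3), a log2 ratio of −0.51 (−0.73 to −0.29). It was below 0 in each of the 3 clusters, and the interval excluded 0 in cluster 6 (−0.59, −1.03 to −0.18). Here the amount per nucleus differed: nuclei with Cxcl14 held 1.55 UMIs against 2.19, while 4.52% and 6.04% of nuclei had it, or 3.11% and 3.59% after thinning. These amounts were not matched for depth (median 752 and 956 UMIs), so its part was not tested. With free RNA subtracted the log2 ratio was −0.70, and the rescaling of the total turned it to 0.021. Under a limit of 5% mitochondrial UMIs it was −1.32. In that bin of the main classes 2 CF-KI UMIs against 96 gave −1.06 (−4.12 to 0.83), too few to show a difference. Outside fibroblast-like nuclei Cxcl14 was higher in CF-KI in endocardial-like (21 against 7 UMIs, 1.51, 0.22 to 2.99) and cardiomyocyte-like nuclei (56 against 16 UMIs, 1.95, 1.13 to 2.86). The endocardial-like levels were 19.2 (CF-KI) and 6.75 CPM (control), against free-RNA levels of 19.3 and 12.7. Cardiomyocyte-like levels were 10.4 and 2.67 CPM, against 7.91 and 3.96. The part of free RNA in these 2 ratios was not tested. Fibroblast-like nuclei held 65.6% of its CF-KI and 89.5% of its control UMIs.

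Ccl11 and Cxcl1 also had fibroblast-like nuclei as their main source. Ccl11, or eotaxin, had 147 and 123 UMIs there, or 44.0 against 30.5 CPM (0.53, 0.17 to 0.89), and the ratio was −1.24 under a limit of 5% mitochondrial UMIs. Fibroblast-like nuclei held 58.1% of its CF-KI and 84.8% of its control UMIs. The rest was spread over classes in CF-KI, among them cardiomyocyte-like nuclei with 43 UMIs against 7 (2.77, 1.60 to 4.16). Cxcl1, the neutrophil attractant, had 87 and 71 UMIs in fibroblast-like nuclei, or 26.0 against 17.6 CPM (0.57, 0.097 to 1.04). In cardiomyocyte-like nuclei it had 13 UMIs against 0, at least 4.80-fold higher, at 2.40 CPM against a free-RNA level of 2.84.

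**Figure D5:**
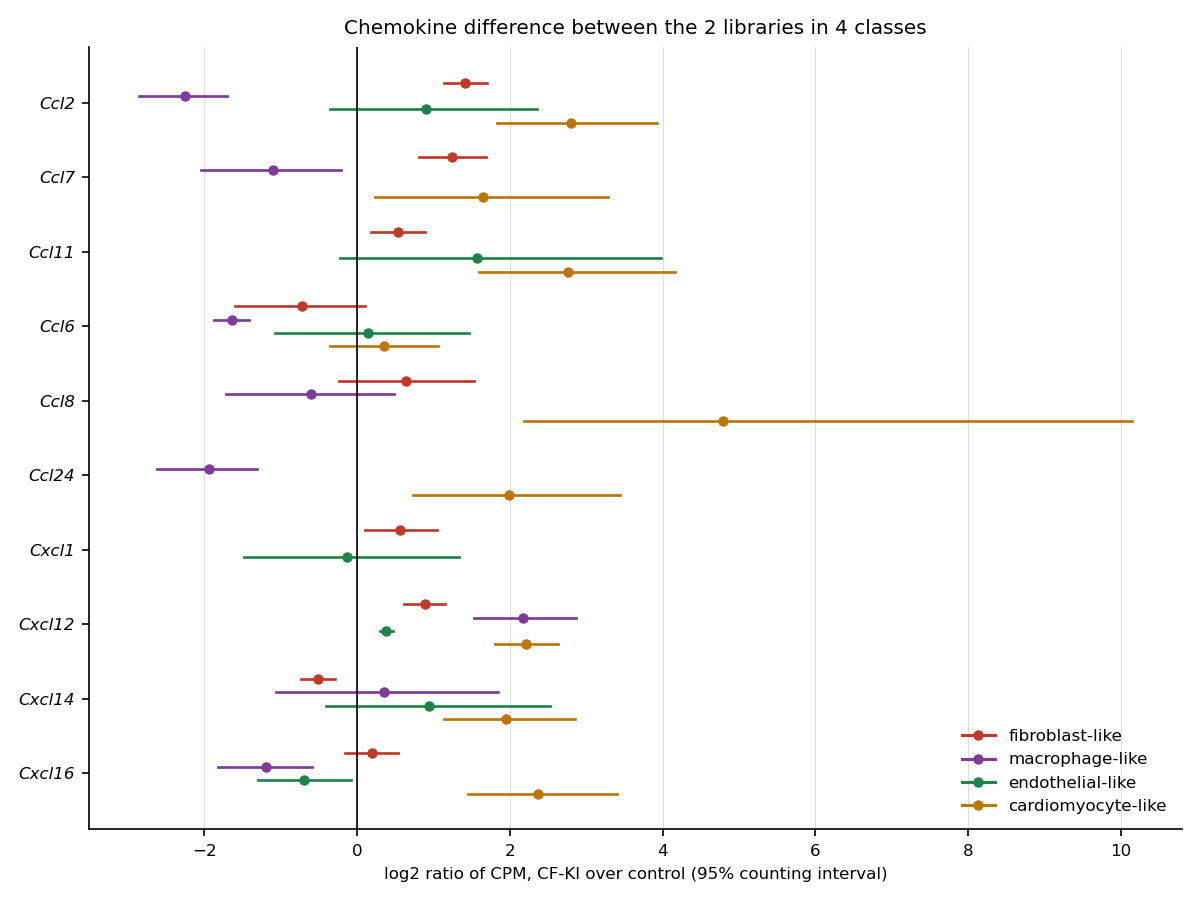
Log2 ratio of CPM, CF-KI over control (x axis), for the 10 chemokines (y axis) in 4 classes (colours), with points for the ratio and lines for the 95% counting interval, where both libraries together had at least 20 UMIs and each at least 1. Cardiomyocyte-like ratios lie above 0 for all genes shown, while 6 of the 8 macrophage-like ratios lie below it. Of all measured genes 63.7% were higher in CF-KI in cardiomyocyte-like and 48.3% in macrophage-like nuclei.

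As a group the genes differed in direction between classes. In fibroblast-like nuclei 2 of 9 measured members, Ccl2 and Ccl7, were at least 2-fold higher and 0 were 2-fold lower, where 5.51% and 2.62% of all genes were; the choice of genes used this contrast, so nothing is read from it. Measured means at least 20 UMIs in both libraries together. Their median log2 ratio was 0.56, against −0.025 over all genes. In macrophage-like nuclei 1 of 8 was 2-fold higher (Cxcl12) and 5 were 2-fold lower (Ccl2, Ccl7, Ccl6, Ccl24 and Cxcl16), against 9.85% and 7.75% of all genes. The median was −1.14 against −0.026 over all genes. In endothelial-like nuclei 1 of 7 was 2-fold higher and 0 were 2-fold lower, against 3.34% and 3.58%.

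Cardiomyocyte-like nuclei, which should make few of these chemokines, had the most members at a higher level. There 8 of 9 were at least 2-fold higher and 0 were 2-fold lower, against 16.3% and 1.97% of all genes. The median log2 ratio was 2.20, against 0.21 over all genes, of which 63.7% were higher. TMM scaling lowers every ratio of this class by 0.20, and those of pericyte-like nuclei by 0.12. All 10 fibroblast markers and all 10 endothelial markers were 2-fold higher in CF-KI cardiomyocyte-like nuclei too, at summed levels of 2825 against 1060 CPM and 1152 against 296.3. Against free RNA, 3 of the 10 chemokines in CF-KI and 6 in the control stood at or below its level, and Ccl8 and Ccl24 in CF-KI stood over 2 times above it. In fibroblast-like nuclei 7 of 10 stood over 2 times above it in either library: Ccl2, Ccl7, Ccl11, Ccl8, Cxcl1, Cxcl14 and Cxcl16.

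Chemokine receptors were sparse, and Ccr1 and Ccr2, which lay mainly in macrophage-like nuclei, were lower there in CF-KI. Of 18 receptors 11 had at least 20 UMIs, and for 8 of them the class with the most UMIs was one of the 9. The interval lay below 0 for 4 of these 8 and above 0 for none. Over all 15532 genes counted in this way, in the class with most of their UMIs, it lay below 0 for 23.4% and above 0 for 14.3%. Ccr2, the receptor of Ccl2 and Ccl7, had 114 UMIs against 226 in macrophage-like nuclei, or 119.6 against 279.8 CPM (−1.23, −1.56 to −0.89). Ccr1 had 39 and 78 UMIs there (−1.24, −1.83 to −0.67). In these nuclei the macrophage markers stood at 3002 against 7840 CPM, and their part in the receptor levels was not tested. The highest ratios, Ccr10 (0.56), Cxcr6 (0.15) and Cx3cr1 (0.12), had intervals that hold 0.

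Scavenging receptors remove chemokines without signalling to migrate. By UMIs, Ackr1, Ackr2, Ackr3 and Ackr4 lay mostly in fibroblast-like nuclei. Ackr3, which binds Cxcl12, had 385 and 650 UMIs in fibroblast-like nuclei, or 115.2 against 160.9 CPM (−0.48, −0.67 to −0.30). Ackr4, a scavenger of Ccl19 and Ccl21, had 121 and 207 UMIs (−0.50, −0.84 to −0.17). Ackr2, a scavenger of inflammatory CC chemokines, had 56 and 48 (0.50, −0.087 to 1.08). By level Ackr2 was highest in lymphatic endothelial-like nuclei, at 108.9 and 85.8 CPM from 17 and 9 UMIs, against 16.8 and 11.9 in fibroblast-like ones. Ccrl2 was higher in its main class by UMIs, cardiomyocyte-like nuclei (0.80, 0.16 to 1.45), which held 28.3% of them. By level these nuclei were not first, at 10.2 CPM in CF-KI against 24.1 in endothelial-like nuclei. In the control they stood at 5.84 CPM against 24.1 in mesothelial-like nuclei. Adipocyte-like levels were lower still, at 6.14 and 3.62 CPM. No free-RNA level was computed for Ccrl2, so the part of free RNA in its ratio was not tested. Gpr182 (0.13) and Ackr1 (−0.31) had intervals that hold 0.

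Among 27 other chemokines in the tables, 17 had at least 20 UMIs, and 13 of these had their main class among the 9. The interval was below 0 for 7 and above 0 for none, against 23.4% and 14.3% of all genes. The lowest were Cxcl13 (3 against 13 UMIs, −2.35, −4.81 to −0.49), Ccl12 (15 against 59 UMIs, −2.21, −3.14 to −1.38) and Pf4 (287 against 608 UMIs, −1.32, −1.53 to −1.12), all in macrophage-like nuclei, where the macrophage markers were lower too (3002 against 7840 CPM). Ccl12 is a further ligand of Ccr2. The highest were Cxcl2 (1.25, −0.31 to 3.07), Cxcl5 (0.54) and Ccl27a (0.53), all with intervals that hold 0. In fibroblast-like nuclei 2 of 10 measured ones were 2-fold higher, against 5.51% of all genes. These were Ccl21a (209 against 57 UMIs, 2.15, 1.72 to 2.60) and Cxcl9 (23 against 10 UMIs, 1.47, 0.35 to 2.71), named after their values were seen. Over all kept nuclei Ccl21a had 1502 against 838 UMIs and Cxcl9 238 against 113. No free-RNA level was computed for these genes, so the part of free RNA in their fibroblast-like ratios was not tested. Ccl21a is mainly lymphatic, at 4612 and 5805 CPM in lymphatic endothelial-like nuclei, and its near-identical gene copies make its counts uncertain.

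Genes that respond to NF-kB differed in direction. Of 14 with at least 20 UMIs, the interval in the main class was above 0 for 2 and below 0 for 3, against 14.3% and 23.4% of all genes. Sod2, a mitochondrial superoxide dismutase, had a ratio of 1.32 in its main class, cardiomyocyte-like nuclei (1.20 to 1.44), and 1.32 (1.14 to 1.51) in fibroblast-like nuclei. Tnfaip2 was higher in fibroblast-like nuclei, with 756 against 531 UMIs (0.78, 0.62 to 0.95), and Nfkbiz (0.32) had an interval that holds 0. Vcam1, an adhesion molecule (−0.48, −0.64 to −0.33), and Nfkb1, an NF-kB subunit (−0.46, −0.62 to −0.31), were lower there, as was Lcn2 in lymphatic endothelial-like nuclei (−1.12, −2.26 to −0.027). In fibroblast-like nuclei 1 of 12 measured was 2-fold higher, against 5.51% of all genes, and the median was 0.18, against −0.025 over all genes.

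Immediate early genes, which respond within minutes to stress and tissue handling, gave 6 intervals above and 3 below 0 among 16 genes, against 14.3% and 23.4% of all genes. Their counts are not matched to those of other genes, and a higher count gives a narrower interval. None of the 16 was 2-fold different in fibroblast-like nuclei, where 5.51% of all genes were 2-fold higher and 2.62% 2-fold lower. The median of the 16 there was 0.036, against −0.025 over all genes. The highest in their main class were Atf3 (1.47, 0.36 to 2.69, in cardiomyocyte-like nuclei), Nr4a1 (0.71, 0.34 to 1.07) and Fos (0.57, −0.11 to 1.26), both in fibroblast-like nuclei. Cardiomyocyte-like nuclei held only 17.7% of the Atf3 UMIs, 25 against 10, and 63.7% of all genes were higher there. In fibroblast-like nuclei Atf3 had 17 and 17 UMIs (0.27, −0.79 to 1.33). The lowest were Egr2 (−0.92, −1.94 to 0.028), Ier2 (−0.59, −0.86 to −0.33) and Ier3 (−0.27, −0.58 to 0.049).

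The pattern of each chemokine over classes was set beside that of other genes, as Pearson's r of log2(CPM + 1) over 18 points, 9 classes in 2 libraries that share depth and free RNA. Ccl6 was most like Ptprc (r = 0.97), Spi1 (0.95) and Cd84 (0.93), and Ccl24 most like Coro1a (0.93), Mgl2 (0.92) and Cd14 (0.87), genes of leukocytes. Cxcl12 was most like Tcf15 (0.94), Rbp7 (0.94) and Epas1 (0.91), which mark capillary endothelium. Ccl2 was most like Bmp2 (0.86), Heatr1 (0.83) and Phf23 (0.82), and Ccl7 most like Cdkn2d (0.84), Creb1 (0.81) and Myoc (0.80). For Cxcl14 they were Cbr3 (0.91), Snai1 (0.89) and Selenon (0.89), for Ccl11 Hmcn2 (0.86), Bmper (0.84) and Snhg3 (0.83), and for Cxcl1 Ptgir (0.93), Efhd1 (0.88) and Ccdc102a (0.87). Ccl8 was most like Ccl9 (0.88), Emilin2 (0.81) and S100a4 (0.80), and Cxcl16 most like Jpt1 (0.93), Mfsd6 (0.93) and Tram1 (0.90).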

How the data were processed

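The authors deposited UMI counts per gene and barcode, raw whole numbers made with Cell Ranger 6.1.1 on mm10 per the submitters' processing notes. Whether intronic reads were counted is not given in the sources used here. Barcodes with at least 200 genes were kept, with no mitochondrial limit, because a limit of 5% leaves few CF-KI fibroblast nuclei. Scrublet's own threshold called 2286 doublets in CF-KI and 0 in the control, so the highest scores were left out at 0.8% per 1000 barcodes, 1792 and 1003. Both libraries were clustered together with scanpy 1.11.5 and leidenalg 0.10.2 (2000 variable genes without the chemokines and the other lists, 30 components, 15 neighbours, resolution 0.8). Cluster names follow the marker list of highest mean fold, given 3 or more of its markers raised (log2 fold 1, in 5% of a cluster's nuclei), and a cluster whose leading genes or several other lists went against that name stayed unnamed. This scoring rule was chosen after seeing the data.

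UMIs were summed per class and library. Levels have exact Poisson intervals, shares exact binomial (Clopper-Pearson) intervals, ratios conditional exact binomial intervals and differences of ratios square-and-add intervals. Medians add 0.5 UMIs, and a count of 0 is set to 3 UMIs. The interval code was tested on simulated data. Factors came from edgeR 4.0.16 and DESeq2 1.42.0, and positions from GENCODE on GRCm38. At most 1.02% of a gene's 31-base stretches occur in other genes. From the lists, genes with at least 20 UMIs were counted and at most the 3 highest and 3 lowest in their main class named, and 3 genes per chemokine were named for likeness. One receptor that this rule names is not reported here. The genes and lists were chosen with earlier results of these data known.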

Additional observations from a re-analysis of the deposited data

Results flagged for a closer look

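In 2 genes the macrophage-like ratio was opposite to the fibroblast-like one, with both intervals clear of 0 over all nuclei. Ccl2 had a log2 ratio of −2.26 in macrophage-like nuclei against 1.41 in fibroblast-like nuclei, of which 102 control UMIs came from 1 nucleus, and it was −0.35 without the top nucleus of each library. Ccl7 stood at −1.11 against 1.24, and at −0.87 (−1.91 to 0.13) without the top nucleus of each library. For Cxcl14 the fibroblast-like ratio of −0.51 was opposite to those of endocardial-like (1.51) and cardiomyocyte-like nuclei (1.95). Its CF-KI levels in the latter 2 classes were 19.2 and 10.4 CPM, against free-RNA levels of 19.3 and 7.91. These differences between classes rest on 1 library per group and were not tested.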

How the results depend on the processing

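Over 88 results and 831 combinations of result and setting, 706 values moved by less than the counting interval, 118 moved further and 7 changed direction, and a further 61 combinations gave no value. A limit of 5% mitochondrial UMIs moved 30 values, and there fibroblast-like Ccl2 was 0.055, Ccl11 −1.24, Cxcl14 −1.32 and the median −0.23, macrophage-like Ccl2 0.26, Ccl7 0.67, Ccl6 −2.82 and the median −2.74, endothelial-like Cxcl12 0.14 and pericyte-like Cxcl12 −0.063. The fibroblast-like share of Ccl2 UMIs was 13.3% (CF-KI) and 60.5% (control). Of the main fibroblast-like class only 56 CF-KI nuclei lay within this limit, with 4 Ccl2, 1 Ccl11 and 2 Cxcl14 UMIs. A limit of 20% gave −2.30 for macrophage-like Ccl6. Only nuclei over 5 to 20%, added after seeing the data, gave 1.84 for fibroblast-like Ccl2, −0.76 for Cxcl14, −3.53 for macrophage-like Ccl2, −2.01 for their median, 0.71 for endothelial-like Cxcl12 and −0.19 for cardiomyocyte-like Cxcl16. Subtraction of free RNA with the total rescaled gave 2.04 for fibroblast-like Ccl2, 1.86 for Ccl7 and 0.021 for Cxcl14, −2.95 for macrophage-like Ccl2 and −0.75 for Ccl6, 0.58 for endothelial-like Cxcl12, and medians of −0.74 in endothelial-like and 3.83 in cardiomyocyte-like nuclei. Without the rescaling, a setting added after seeing the data, they were 1.32, 1.14, −0.70, −3.92, −1.71, 0.31, −1.01 and 3.53 in that order, and the macrophage-like median was −1.96. The rescaling alone makes the gap between these settings (0.72 in fibroblast-like, 0.97 in macrophage-like nuclei). At least 500 genes gave 1.94 for fibroblast-like Ccl2, 73.7% for its CF-KI share and 0.28 for endothelial-like Cxcl12, which was 0.24 with mitochondrial UMIs in the total. Separate clustering gave −0.97 for fibroblast-like Cxcl14, −2.13 for macrophage-like Ccl6 and 21.2% for the control share of Ccl2. Macrophage-like Ccl2 was −0.16 at resolution 0.4, −0.79 as the mean within clusters, and, in settings added after seeing the data, −0.12 without the cell cycle cluster and −0.35 without the top nucleus of each library. The causes were not tested. TMM and median-of-ratios scaling moved none of the values beyond their interval. No paired analysis was possible because each group has 1 library. Depth limits Ccl8, Ccl24 and Cxcl1 outside their main classes, where counts were mostly under 20 UMIs.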
